A study of Mus musculus with 8 samples.

Results

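Hopx encodes a very small homeodomain protein that does not bind DNA. It is 1 of the 9140 genes in a single-cell RNA sequencing matrix of cultured mouse hippocampal neural progenitor cells (NPCs), and it was followed through all 8 libraries. It was chosen by its measured levels and correlations in these same libraries, so both are given as a description, with no test. The cells came from microdissected dentate gyrus of embryos at embryonic day 18, per the labels, while the methods of the study name an earlier stage. The embryos were from C57BL/6J females mated with Kmt2d+/βgeo males. One label, Kmt2d+/βgeo, marks cells with 1 copy of the gene trap allele Mll2Gt(RRt024)Byg, and the other marks wild type cells, labelled C57BL/6J and described as littermates. All cells were first grown with EGF and FGF2, and libraries were made on day 0, with these factors present, and on days 2, 4 and 8 after their removal, which starts differentiation. Each label has 1 library per day, so a label or a day cannot be told apart from a culture, and no test between libraries was run. Each interval covers counting error only.

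Hopx is a transcriptional cofactor best known from the heart, where it binds serum response factor (SRF) and recruits histone deacetylases, and where it links BMP signalling to reduced WNT signalling. In the nervous system it marks radial astrocyte-like stem cells of the adult dentate gyrus, outer radial glia of the developing primate cortex and many mature astrocytes. It thus spans quiescent stem cells and cells on the astrocyte path in this tissue.

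The gene (ENSMUSG00000059325) lies on the minus strand of chromosome 5 of GRCm38, at chr5:77086988-77115121. GENCODE M21 gives it 3 transcripts, Hopx-201, Hopx-202 and Hopx-203, which differ in where they start and share the same coding part of 73 codons. All 3 end in the same last exon, chr5:77086988-77087816, which holds the stop codon and the 3′ untranslated region. The reads are 3′-end tags, so the values below sum over the starts and cannot say which one was used. The antisense gene Hopxos overlaps Hopx at chr5:77094532-77102303, but none of its exons reaches the last exon of Hopx, and it has no row in the matrix. The bases before both RefSeq starts of Hopx (RefSeq, GRCm38.p6, minus strand) are shown here because these starts feed the single value that was measured. Each covers 250 bases, at chr5:77115124-77115373 for the upstream and chr5:77095268-77095517 for the downstream promoter. Capitals mark a match to the CArG box bound by SRF in the first sequence and to the E-box CACGTG in the second.
Hopx upstream promoter: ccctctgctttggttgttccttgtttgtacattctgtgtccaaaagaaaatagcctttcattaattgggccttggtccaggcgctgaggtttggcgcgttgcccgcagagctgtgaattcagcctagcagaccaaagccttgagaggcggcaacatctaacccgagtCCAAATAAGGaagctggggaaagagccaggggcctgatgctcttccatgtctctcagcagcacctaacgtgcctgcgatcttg
Hopx downstream promoter: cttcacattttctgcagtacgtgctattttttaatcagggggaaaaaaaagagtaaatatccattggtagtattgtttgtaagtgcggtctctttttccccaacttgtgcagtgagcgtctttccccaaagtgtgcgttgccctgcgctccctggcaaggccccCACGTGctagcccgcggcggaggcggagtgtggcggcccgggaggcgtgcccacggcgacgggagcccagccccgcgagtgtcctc

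The CArG box match spans bases -83 to -74 before the upstream start, and 1.47% of 32851 promoter windows of the same length held such a match. The E-box spans bases -86 to -81 before the downstream start, and 6.02% of the windows held one. The other motifs searched, on both strands, were the RBPJ site GTGGGAA (5.42% of windows), the SMAD palindrome GTCTAGAC (0.167%) and the NFI palindrome (0.0365%), and neither Hopx window held a match. The windows differ in composition, with 8 CG dinucleotides upstream and 18 downstream against a median of 6.00. A match is a string of letters, and occupancy of these sites was not measured.

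The libraries held 2534 to 4900 cells each, 30408 in all, with a median of 7926 to 23219 total unique molecular identifiers (UMIs) per cell. A UMI marks 1 captured RNA molecule. The shallowest library was Kmt2d+/βgeo on day 8, with a median of 3972 UMIs on the matrix genes against 6989 in wild type. The level of Kmt2d itself did not separate the labels. Its mean normalised count was 0.193 and 0.157 on day 0, 0.171 and 0.197 on day 2, 0.295 and 0.237 on day 4 and 0.290 and 0.241 on day 8, Kmt2d+/βgeo first, so it was lower under that label only on day 2. Whether the tags count transcripts of the trapped allele was not tested. The day 4 libraries stood apart in being nearly alike, with an SD of the log2 ratio between labels of 0.109 over 7459 genes against 0.342 to 0.492 on the other days. Luzp2, at 0.287 and 0.00824 on day 0, 1.48 and 0.0305 on day 2 and 2.62 and 0.0575 on day 8, was at 0.0502 and 0.0422 on day 4. The library labelled Kmt2d+/βgeo on day 4 was thus wild-type-like for this gene, and the changes from day 4 to day 8 under this label are also given from day 2. Pairs of libraries shared 0 to 10 cell barcodes, and the day 4 pair shared 2. Of the progenitor and radial glia markers, 9 of 21 have a row in the matrix, and Sox9, Vim, Fabp7, Slc1a3 and Ptprz1 had means of 1.61 or more in every library. Notch1 was at 1.12 to 2.06 and Notch2 at 0.120 to 2.48, while Prom1 was low at 0.0167 to 0.369 and Pax6 at 0.202 to 0.432. Nes, Sox2 and Gfap have no row. In day 8 Kmt2d+/βgeo the matrix genes held a median of 3972 UMIs per cell against 7926 in total. A missing row is thus not read as a low level.

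Hopx was low in progenitors kept with growth factors, higher in both labels on day 2, at a like level on day 4, and higher again on day 8 in the library labelled Kmt2d+/βgeo, which had the highest level of the 8. In wild type, the day 8 level was close to those of days 2 and 4. The mean normalised count of Hopx, a library-size-scaled UMI count per cell, was 0.435 in Kmt2d+/βgeo and 0.226 in wild type on day 0. On day 2 it was 1.59 and 1.66, and on day 4 it was 1.44 and 1.42. On day 8 it was 6.16 in Kmt2d+/βgeo and 1.82 in wild type. From lowest to highest, the order was thus wild type and then Kmt2d+/βgeo on day 0, both labels on day 4, both on day 2, wild type on day 8 and Kmt2d+/βgeo on day 8.

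Pooled over cells, the Hopx UMIs per 10000 matrix UMIs were 0.499 (95% exact Poisson interval 0.480 to 0.519) in Kmt2d+/βgeo and 0.256 (0.242 to 0.269) in wild type on day 0. They were 1.95 (1.91 to 2.00) and 2.03 (1.98 to 2.08) on day 2, and 1.73 (1.68 to 1.78) and 1.72 (1.67 to 1.77) on day 4. On day 8 they were 7.49 (7.34 to 7.65) and 2.13 (2.07 to 2.19). The intervals of the day 4 libraries overlapped, as did those of the day 2 libraries with each other. The day 8 interval of Kmt2d+/βgeo lay far above every other library. These rest on 1356 to 8905 Hopx UMIs per library.

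**Figure D1:**
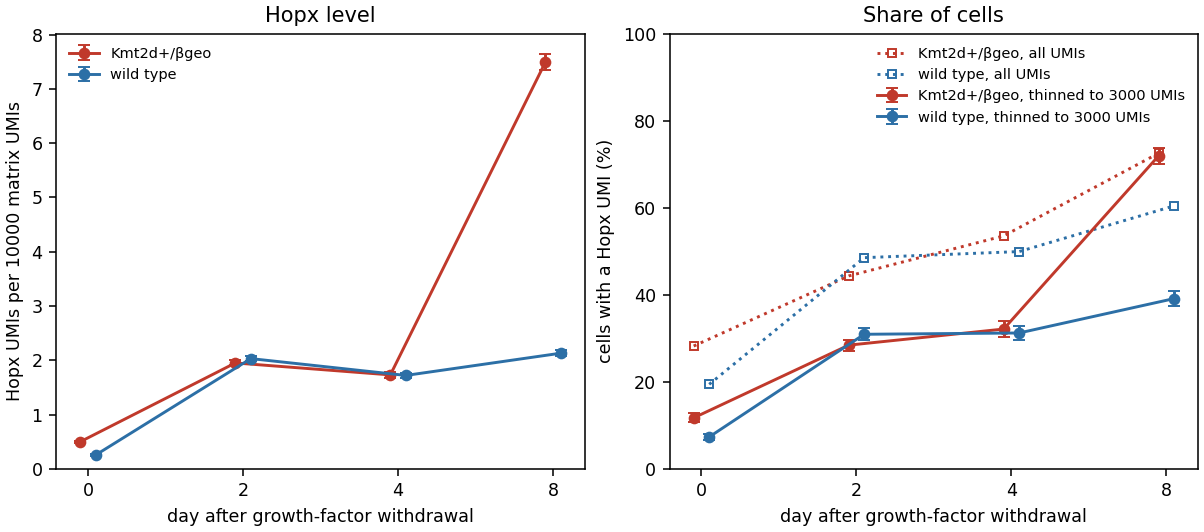
Left, Hopx UMIs per 10000 matrix UMIs (y axis) by day after growth-factor withdrawal (x axis, not to scale in time) for the Kmt2d+/βgeo (red) and wild type (blue) libraries, with 95% exact Poisson intervals. Right, the percentage of cells with a Hopx UMI after thinning to 3000 UMIs per cell (filled, with 95% exact binomial intervals) and with all UMIs (open). Both panels show 1 library per point. The left panel shows like levels on days 2 and 4 and, on day 8, Kmt2d+/βgeo at 7.49 against 2.13 in wild type. On day 8 the thinned shares in the right panel are 71.9% and 39.1%.

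The share of cells with at least 1 Hopx UMI was also lowest on day 0 and highest in day 8 Kmt2d+/βgeo. From day 2 to day 4 the mean normalised count was lower in both labels. Under Kmt2d+/βgeo this step sets day 2 against the day 4 library that was nearly like the wild type one. At 3000 UMIs per cell the share was higher on day 4 in Kmt2d+/βgeo and close to level in wild type. At 2000 UMIs per cell it was close to level in both, at 22.9% and 23.2% in Kmt2d+/βgeo and 24.0% and 23.6% in wild type. In Kmt2d+/βgeo the direction of the level also depended on the scale. The difference of mean log2 values over day 0 was 0.51 on day 2 and 0.57 on day 4 there, and 0.71 and 0.67 in wild type. After each cell was thinned to 3000 UMIs, which evens out depth, 11.7% of Kmt2d+/βgeo cells (95% exact binomial interval 10.7 to 12.7) and 7.31% of wild type cells (6.59 to 8.08) had one on day 0. The shares were 28.4% (27.1 to 29.7) and 30.9% (29.5 to 32.3) on day 2, and 32.1% (30.3 to 33.9) and 31.2% (29.6 to 32.7) on day 4. On day 8 they were 71.9% (70.0 to 73.8) and 39.1% (37.4 to 40.8). Thinning left out 761 shallower cells of the day 8 Kmt2d+/βgeo library, 25 of the day 0 Kmt2d+/βgeo library and 3 of the day 8 wild type library, and none of the rest. With all UMIs the shares were 28.2% and 19.4%, 44.3% and 48.5%, 53.5% and 49.9%, and 72.5% and 60.4% in the same order. The gap between labels on day 8 is thus narrower in the unthinned shares, where the wild type cells are deeper.

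Between days 0 and 2, the ratio was larger in wild type, where day 0 was lower. The log2 ratio of mean normalised counts of day 2 over day 0 was 1.87 in Kmt2d+/βgeo and 2.88 in wild type, which is 3.65-fold and 7.34-fold. Its size depended on depth, at 1.04 and 2.26 in the shallowest and deepest terciles of Kmt2d+/βgeo cells and 2.28 and 3.27 in those of wild type. In this step 10.7% and 8.08% of the genes compared were at least 2-fold higher. In wild type 23 of 7451 genes had a larger ratio than Hopx, and in Kmt2d+/βgeo 207 of 7502 did. Day 4 over day 0 gave log2 ratios of 1.72 and 2.65, with 14.8% and 11.9% of genes at least 2-fold higher. The 1.72 rests on the day 4 library that was wild-type-like for Luzp2. Day 8 over day 0 gave 3.82 (14.1-fold) in Kmt2d+/βgeo and 3.01 (8.03-fold) in wild type, with 19.0% and 16.3% of genes at least 2-fold higher.

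After day 4, the level was higher by more than 2-fold in Kmt2d+/βgeo. Day 8 over day 4 gave a log2 ratio of 2.10 there, 4.28-fold, in a step where 5.60% of 7726 genes were at least 2-fold higher and 66 had a larger ratio than Hopx. Against day 2 in place of day 4 it was 1.95, 3.88-fold, with 11.3% of genes at least 2-fold higher. In wild type the log2 ratios were 0.36 over day 4 and 0.13 over day 2, both under 2-fold, where 3.0% and 8.55% of genes were at least 2-fold higher. The wild type change over day 2 turned to -0.11 when only the deepest tercile of cells was used. The difference between the labels in these changes was not tested, since each change rests on 1 library at each end.

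Between labels, Hopx differed most on day 8, less on day 0 and little on days 2 and 4. The day 4 ratio sets side by side the 2 libraries that were nearly alike over all genes, so what it says of the labels rests on a library that was wild-type-like for Luzp2. On day 8 the log2 ratio of Kmt2d+/βgeo over wild type was 1.76, or 3.39-fold. From summed UMIs it was 1.81 (exact interval 1.76 to 1.86). Of 7576 genes compared, 2.06% were at least 2-fold higher in Kmt2d+/βgeo, and 26 had a larger ratio than Hopx. On day 0 the log2 ratio was 0.94 (1.92-fold), short of 2-fold, where 0.674% of genes passed it. It was -0.065 on day 2, where 1.15% of genes were at least 2-fold lower, and 0.021 on day 4, where 0% of genes were at least 2-fold higher. With summed UMIs, the day 2 ratio was -0.051 (-0.099 to -0.0038) and the day 4 ratio 0.0060 (-0.053 to 0.065). On day 2 the direction turned with depth, to 0.054 in the deepest tercile of cells and -0.34 in the shallowest.

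Depth within a library moved with Hopx, so the day 8 levels were also read by tercile of matrix UMIs. In Kmt2d+/βgeo they were 5.63, 6.74 and 8.84 Hopx UMIs per 10000 from the shallowest to the deepest tercile, and in wild type 1.78, 2.28 and 2.23. The deepest wild type tercile, at a median of 8727 UMIs per cell, was thus below the shallowest Kmt2d+/βgeo tercile, at 2511. On day 0 the levels showed no climb with depth, at 0.503, 0.481 and 0.509 in Kmt2d+/βgeo and 0.264, 0.262 and 0.248 in wild type. On day 2 they climbed from 1.05 to 2.44 in Kmt2d+/βgeo and from 1.33 to 2.41 in wild type, and on day 4 from 1.19 to 2.09 and from 1.08 to 2.08. From day 2 on, then, the shallowest tercile had the lowest Hopx share of UMIs in every library, and the part of depth in the Hopx levels was not tested.

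Hopx was spread unevenly over the cells of each library. On day 0, 88.3% of thinned Kmt2d+/βgeo cells had 0 Hopx UMIs, 9.03% had 1, and 13 of 4306 had 4 to 7. In wild type, 92.7% had 0 and 6.46% had 1, and a single cell had 4 to 7. By day 2, 3.04% and 2.88% of cells had 4 to 7 UMIs and 0.265% and 0.342% had 8 or more, Kmt2d+/βgeo first. These upper classes were smaller on day 4, where 1.78% and 1.59% of cells had 4 to 7 UMIs, with 1 and 2 cells at 8 or more. In day 8 Kmt2d+/βgeo, 18.1% had 4 to 7 and 5.08% had 8 or more, against 2.49% and 0.0935% in wild type.

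**Figure D2:**
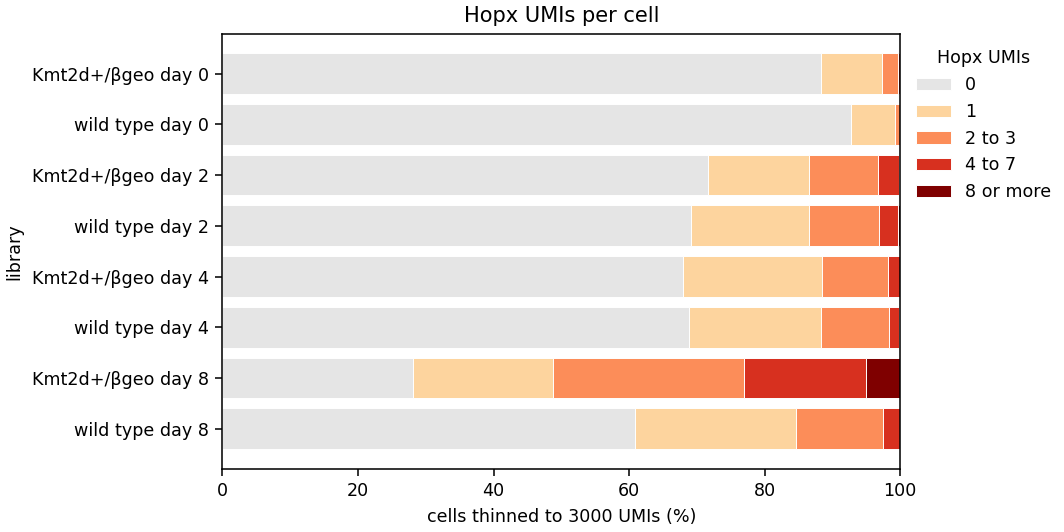
Share of cells (x axis, in percent) with 0, 1, 2 to 3, 4 to 7 or 8 or more Hopx UMIs after thinning to 3000 UMIs per cell, for each of the 8 libraries (y axis). Cells without a Hopx UMI are at 88.3% and 92.7% on day 0 and at 28.1% in Kmt2d+/βgeo and 60.9% in wild type on day 8.

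The Fano factor, the variance over the mean and equal to 1 for counts at random around 1 level, was 1.59 and 1.19 on day 0, 2.52 and 2.39 on day 2, 1.73 and 1.79 on day 4 and 2.96 and 1.69 on day 8. Among the 200 genes nearest to Hopx in mean, its median was 1.04 to 1.07 in 7 libraries and 1.22 in day 8 Kmt2d+/βgeo. Of those 200 genes, 0 to 11 had a higher Fano factor than Hopx, the 11 being in day 0 wild type. In day 8 Kmt2d+/βgeo, 28.1% of cells had no Hopx UMI, where a Poisson count of the same mean gives 10.2%. On day 2, the tenth of cells with the most Hopx held 60.9% of its thinned UMIs in Kmt2d+/βgeo and 58.1% in wild type. On day 8 the same share was 36.5% and 46.8%, and on day 0 it was 89.4% and 100%. It depends on the mean, which was 0.556 thinned UMIs on day 2 and 2.29 on day 8 in Kmt2d+/βgeo. It thus does not compare spread between libraries.

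Across the cells of a library, Hopx went with astrocyte genes and against Olig2 from day 2 on, and with only part of the radial glia list. Correlations are Pearson's r of log2 values over the 2534 to 4900 cells of each library, for genes found in at least 5% of cells, and they describe cells that share a culture, a library and a range of depth. On day 0 they were weak, with a highest r of 0.20 (Ccdc3) in Kmt2d+/βgeo and 0.15 (Mt3) in wild type. In counts this sparse no single gene of day 0 is a finding, and the astrocyte list of that day is read below. On day 2 the highest r values were 0.44 for Mt3 in Kmt2d+/βgeo and 0.48 for Glul in wild type. On day 4 they were 0.41 and 0.39, both for Glul. On day 8 they were 0.30 for Igfbp5 in Kmt2d+/βgeo and 0.23 for Prdx6 in wild type. An r of at least 0.2 was reached by 1 and 0 genes on day 0, 129 and 108 on day 2, 82 and 64 on day 4 and 15 and 6 on day 8.

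The genes with the highest median r over the libraries were largely astrocyte genes. Mt3, the brain metallothionein, was first at 0.32, and its relative Mt2 was at 0.28. Cst3, the secreted protease inhibitor cystatin C, followed at 0.31, and Lxn, a carboxypeptidase inhibitor, at 0.29. Prdx6, a peroxiredoxin rich in astrocytes, was at 0.28, Sparcl1, a secreted synapse-organising protein, at 0.26, Sdc4, a heparan sulfate proteoglycan, at 0.26 and Ttyh1, a membrane protein of glia, at 0.26. Slc1a3, the glutamate transporter of radial glia and astrocytes, and Glul, glutamine synthetase, were both at 0.25. Mt3, Slc1a3 and Ttyh1 were among the 50 highest genes in all 8 libraries, and 12 genes were in at least 7, namely these and Cst3, Dbi, Gpx4, Lxn, Prdx6, Scd2, Slc4a4, Sparc and Sparcl1. Glul had an r of 0.080 in Kmt2d+/βgeo and 0.12 in wild type on day 8, below its 0.37 and 0.48 on day 2.

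At the low end stood Ptma, prothymosin alpha, at a median r of -0.23, and Lrrn1, a leucine-rich repeat membrane protein, at -0.22. Olig2, the transcription factor of oligodendrocyte progenitors, was at -0.22, Ncald, a neuronal calcium sensor, at -0.22 and Smoc1, a secreted calcium-binding protein, at -0.21. Olig2 was lowest of all genes in day 2 Kmt2d+/βgeo, at -0.41. Txn1, thioredoxin, was lowest in day 2 wild type, at -0.43, and Tmsb4x, a thymosin, on day 4, at -0.37 and -0.36. Lhfpl3, which is found in the oligodendrocyte lineage, was lowest on day 8, at -0.18 and -0.15. Hopx also followed depth itself from day 2, with an r against log2 matrix UMIs of 0.14 to 0.23, against 0.044 and 0.024 on day 0. Over all libraries 21 genes had a median r of at least 0.2, and after thinning 3 did, though 19 of the 20 highest genes stayed among the 20 highest.

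**Figure D3:**
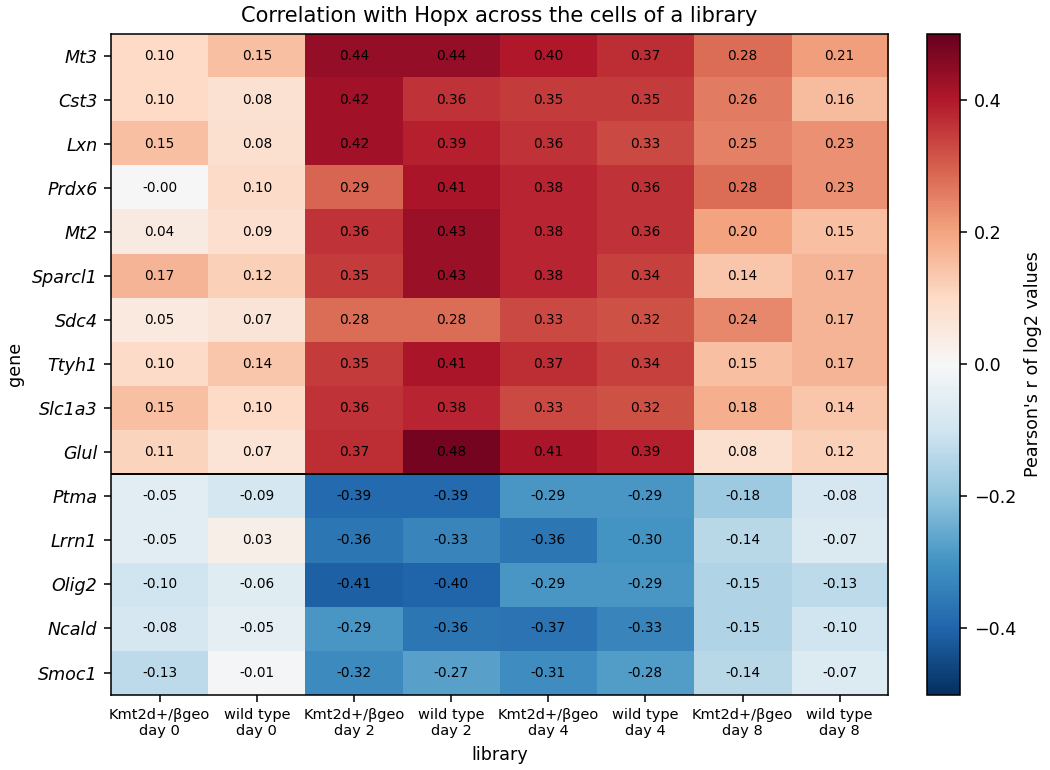
Pearson's r with Hopx across the cells of each library (columns) for the 10 genes with the highest and the 5 with the lowest median r over the 8 libraries (rows), on a colour scale from -0.5 to 0.5. The values run to 0.48 for Glul in day 2 wild type and -0.41 for Olig2 in day 2 Kmt2d+/βgeo, and on day 0 none of the 15 genes is beyond 0.17.

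Thinned counts give the size of these differences. On day 2, cells with 3 or more Hopx UMIs held a mean of 60.1 Cst3 UMIs in Kmt2d+/βgeo against 31.6 in cells without Hopx, and 68.6 against 43.0 in wild type. Glul was at 2.06 against 0.864 in Kmt2d+/βgeo and 5.87 against 1.94 in wild type. Olig2 was at 0.345 against 2.01 and 0.677 against 2.68. On day 8 Cst3 was at 28.8 against 22.8 in Kmt2d+/βgeo and 46.2 against 37.6 in wild type. The contrast between cells with and without Hopx was thus smaller than on day 2. The class with 3 or more Hopx UMIs held 313 cells on day 2 and 745 on day 8 in Kmt2d+/βgeo, so it was a wider class there. In wild type it held 260 and 196. Apoe, the main lipid carrier of astrocytes, was nearly level in day 8 Kmt2d+/βgeo, at 39.0 against 36.6.

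Read by list, 15 of 24 astrocyte genes are in the matrix, and the number with an r of at least 0.1 was 7 and 4 on day 0, 14 and 14 on day 2, 14 and 12 on day 4 and 8 and 9 on day 8, Kmt2d+/βgeo first. Over all genes that share was 0.395% and 0.324% on day 0, 6.22% and 5.59% on day 2, 5.20% and 4.31% on day 4 and 1.90% and 0.897% on day 8. The median r of the list peaked at 0.35 in day 2 wild type, against -0.0051 over all genes. S100b, a calcium-binding protein, F3, tissue factor, and Fgfr3, an FGF receptor, were at the low end of the list, with median r values of 0.030, 0.087 and 0.089. The neural stem cell and radial glia list, with 9 genes in the matrix, was divided. Its number with an r of at least 0.1 was 3 of 8 and 0 of 8 on day 0 and 4 of 8 in both labels on day 2. On day 4 it was 4 of 9 in both, and on day 8 3 of 9 and 2 of 9. At -0.1 or below were 1 gene in each label on day 2, against 4.89% and 4.34% of all genes, and 1 in day 8 Kmt2d+/βgeo, against 0.495%. The list had a median r of 0.14 and 0.11 on day 2 and 0.045 and -0.0090 on day 8, against -0.011 and -0.0051 and 0.0068 and -0.0020 over all genes. At the high end after Slc1a3 were Sox9, a glial transcription factor, at a median r of 0.18, Fabp7, the radial glia fatty acid-binding protein, at 0.14, and Vim, an intermediate filament, at 0.12, though Fabp7 was at -0.093 in day 8 wild type. At the low end were the receptor Notch1, at a median of -0.050 with -0.16 and -0.14 on day 2, and Ptprz1, a receptor phosphatase, at -0.033, while Notch2, Prom1, a membrane protein of progenitors, and Pax6, a transcription factor, lay at -0.0066, -0.00053 and 0.034. Of the outer radial glia list, 1 of 9 measured genes in Kmt2d+/βgeo and 0 of 8 in wild type had an r of at least 0.1 on day 0. On day 2, 5 of 9 and 5 of 8 did, on day 4 2 of 8 and 1 of 8, and on day 8 0 of 8 and 0 of 7. An r of -0.1 or below was found for 1 gene in day 2 Kmt2d+/βgeo, the cytokine receptor gene Lifr at -0.11, against 4.89% of all genes. In day 8 Kmt2d+/βgeo it was found for 1 gene, Ptprz1 at -0.10, against 0.495%. The highest medians of the list were 0.096 for Acsbg1, a fatty acid activating enzyme, and 0.079 for Itgb5, an integrin subunit. Ptn, a secreted growth factor, reached 0.35 in day 2 Kmt2d+/βgeo but was at -0.086 in day 8 Kmt2d+/βgeo.

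On the other side, 3 of 14 oligodendrocyte lineage genes are in the matrix, Olig2, Cnp and Bcas1, and the number with an r of -0.1 or below was 1 and 0 on day 0, 2 and 2 on day 2, 3 and 3 on day 4 and 1 and 1 on day 8. Over all genes that share was 0.0718% and 0.0120%, 4.89% and 4.34%, 4.60% and 3.19%, and 0.495% and 0.230% in the same order. Bcas1, a myelin-associated gene of early oligodendrocytes, had a median r of -0.12 and Cnp, a myelin enzyme, one of -0.019. On day 8 the 1 gene was Olig2 in both labels, with Cnp at -0.016 and -0.0088, and Cnp was at 0.076 in day 2 Kmt2d+/βgeo. Olig2 was widespread on day 0, where 3097 thinned Kmt2d+/βgeo cells had its UMI and 1209 did not, and 4130 and 727 in wild type. Its mean normalised count was 5.53 and 8.09 on day 0 and 1.48 and 0.911 on day 8, Kmt2d+/βgeo first. An Olig2 UMI alone is thus not read as a mark of the oligodendrocyte lineage here, and the lineage of cells was not tested. Of 6 neuron genes in the matrix, 3 to 5 were measured in each library, and Elavl3 in no library. Of those measured, 0 had an r of at least 0.1 in any library, where 0.324% to 6.22% of all genes did, so that count is near the background. An r of -0.1 or below was found for 2 of 3 measured neuron genes in day 2 Kmt2d+/βgeo and 3 of 5 in both labels on day 4, against the shares of 4.89%, 4.60% and 3.19% over all genes. It was found for 0 in the other libraries, where those shares were 0.0120% to 4.34%. Map2, a dendritic microtubule protein, was lowest at -0.17 in day 4 wild type. Of the 18 microglia, vascular and choroid markers, 0 had a row in the matrix, so those cells could not be looked for.

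Cells were then parted by whether they held a thinned UMI of Olig2 or of Slc1a3. These genes are among the lowest and the highest by median r with Hopx in these same cells. The split thus shows the same correlations as shares of cells and adds no separate support. Among cells with Slc1a3 and no Olig2, 15.1% of Kmt2d+/βgeo and 7.88% of wild type cells had a Hopx UMI on day 0, 41.1% and 45.8% on day 2, 38.1% and 36.8% on day 4 and 75.0% and 40.0% on day 8. Among cells with Olig2 and no Slc1a3 the shares were 7.12% and 7.42%, 5.41% and 10.6%, 5.22% and 4.12%, and 43.1% and 11.0%. In wild type, the cells with Olig2 and no Slc1a3 were thus at or under 11.0% on every day, while those with Slc1a3 and no Olig2 were at 36.8% or more from day 2. Cells with both genes lay between these classes on days 2 and 4, with 24.3% and 21.4% in wild type. On day 8 the cells with both were at 69.2% and 37.9% and the cells with neither at 60.7% (52.4 to 68.5) and 41.5% (30.7 to 52.9), so in wild type the cells with neither were at a like share to those with Slc1a3 and no Olig2. On days 2 and 4, in both labels, the class with Slc1a3 and no Olig2 held several times the share of the class with Olig2 and no Slc1a3. In day 2 Kmt2d+/βgeo the intervals, of counting error within 1 library only, were 39.0 to 43.2 and 3.19 to 8.53. On day 0 in wild type the classes overlapped (5.95 to 10.2 against 4.76 to 10.9).

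Droplets can also hold free RNA, molecules from burst cells. Olig2 and Slc1a3 are among the genes with the lowest and highest r with Hopx, so their classes cannot show its part. All cells compared here were at the same depth of 3000 UMIs. On days 2 and 4, 4.12% to 10.6% of the cells with Olig2 and no Slc1a3 had a Hopx UMI, well under the shares of the whole libraries. On day 8 in Kmt2d+/βgeo, 43.1% of 65 such cells (30.8 to 56.0) had a Hopx UMI, and their mean of 0.985 thinned Hopx UMIs compares with 2.48 in the cells with Slc1a3. In the same library, 71.4% of the 63 cells with a UMI of Rbfox3, a nuclear protein of neurons, had a Hopx UMI (58.7 to 82.1), like the 71.9% of the rest. On days 2 and 4, cells with Rbfox3 had lower shares, at 8.62% and 15.9% and at 18.8% and 20.2%, and on day 8 in wild type 23.4% of 47 cells. At 2000 UMIs per cell the day 2 wild type contrast was gone, with 23.7% of 38 cells with Rbfox3 (11.4 to 40.2) against 24.0% of the rest. The day 8 wild type intervals overlapped at 3000 UMIs (12.3 to 38.0 against 37.6 to 41.1). At 2000 UMIs that contrast was smaller, with 27.5% of 40 cells (14.6 to 43.9) against 31.3%. The shares of 43.1% and 71.4% in the day 8 Kmt2d+/βgeo library, thus stand beside the 75.0% of the cells with Slc1a3 and no Olig2, and the part of free RNA in each was not tested.

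**Figure D4:**
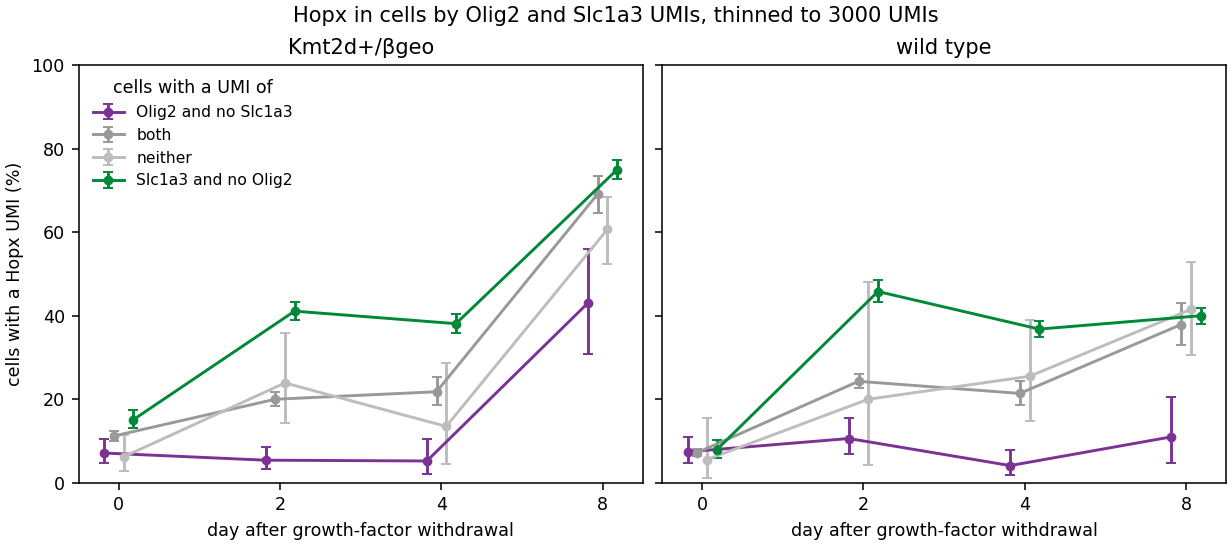
Percentage of cells with a Hopx UMI (y axis, 95% exact binomial intervals) by day (x axis) in the Kmt2d+/βgeo (left) and wild type (right) libraries, for cells with a UMI of Olig2 and not Slc1a3 (purple), Slc1a3 and not Olig2 (green), both (dark grey) or neither (light grey), all thinned to 3000 UMIs. On day 8 the cells with Olig2 and no Slc1a3 are at 43.1% in Kmt2d+/βgeo and 11.0% in wild type.

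Other genes were read the same way. The share of cells with Hopx was lower with an Olig2 UMI than without in all 8 libraries, at 18.3% against 40.6% in day 2 Kmt2d+/βgeo and 23.1% against 45.6% in day 2 wild type, but at 7.24% (6.47 to 8.07) against 7.70% (5.87 to 9.89) in day 0 wild type, where the intervals overlapped. With Sox9 the share was higher in 7 of 8 libraries, at 37.2% against 21.3% and 36.3% against 24.0% on day 2, the exception being day 0 wild type. At 2000 UMIs per cell the exception was day 8 wild type, at 31.3% with and without, so which library stood out depended on the depth. With Gja1, the astrocyte gap junction protein connexin 43, it was also higher in 7, at 42.4% against 27.2% and 47.0% against 27.6% on day 2, the exception being day 0 wild type at 5.59% against 7.37%, which turned to 9.32% against 4.45% at 2000 UMIs. The intervals overlapped in day 0 Kmt2d+/βgeo, at 12.5% (7.81 to 18.6) against 11.6%, and in day 8 wild type, at 40.7% (38.4 to 43.1) against 37.1% (34.6 to 39.6). Cells with Top2a, the topoisomerase of dividing cells, had a lower share in all 8 at this depth, with intervals that overlapped on days 0, 2 and 4, and in 7 of 8 when thinned to 2000 UMIs. On day 0, where 1616 and 1642 cells had Top2a, the shares were 11.4% against 11.8% and 6.33% against 7.81%. On day 8 they were 47.6% of 21 cells (25.7 to 70.2) against 72.1% (70.2 to 74.0), intervals that met, and 24.1% of 58 cells against 39.4%. At 2000 UMIs the day 8 wild type intervals overlapped (10.8 to 38.5 against 29.8 to 33.0). Of the cell cycle list, 0 of 13 genes had an r of at least 0.1 on day 0, where 0.395% and 0.324% of all genes did, so that count is near the background.

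The higher day 8 level of Hopx in Kmt2d+/βgeo had no match among the astrocyte genes. Of the 15 astrocyte genes, 0 were at least 2-fold higher in Kmt2d+/βgeo than in wild type on day 8, and 3 were at least 2-fold lower, against 2.06% and 2.81% of all genes. Glul was at 0.451 against 1.49, Sparcl1 at 5.82 against 14.4 and Apoe at 94.7 against 230 mean normalised counts. The list had a median log2 ratio of -0.52, where all genes had 0.011. Mt3, the best correlate of Hopx, was at 153 and 182, a log2 ratio of -0.25, and Slc1a2, the main astrocyte glutamate transporter, at 2.08 and 1.53, a log2 ratio of 0.44. Day 8 over day 0 in Kmt2d+/βgeo, 10 of the 15 were at least 2-fold higher and 1 lower, against 19.0% and 13.9% of all genes. In wild type 12 were higher and 0 lower, against 16.3% and 10.9%. Day 8 over day 4 in Kmt2d+/βgeo, the step in which Hopx was 4.28-fold higher, 0 of the 15 were at least 2-fold higher and 4 lower, against 5.60% and 7.40% of all genes. From day 2 in place of day 4, 3 were higher and 3 lower, against 11.3% and 10.2%, with a median log2 ratio of -0.080 where all genes had 0.053, so the count of 0 higher and 4 lower depends on the day 4 library.

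**Figure D5:**
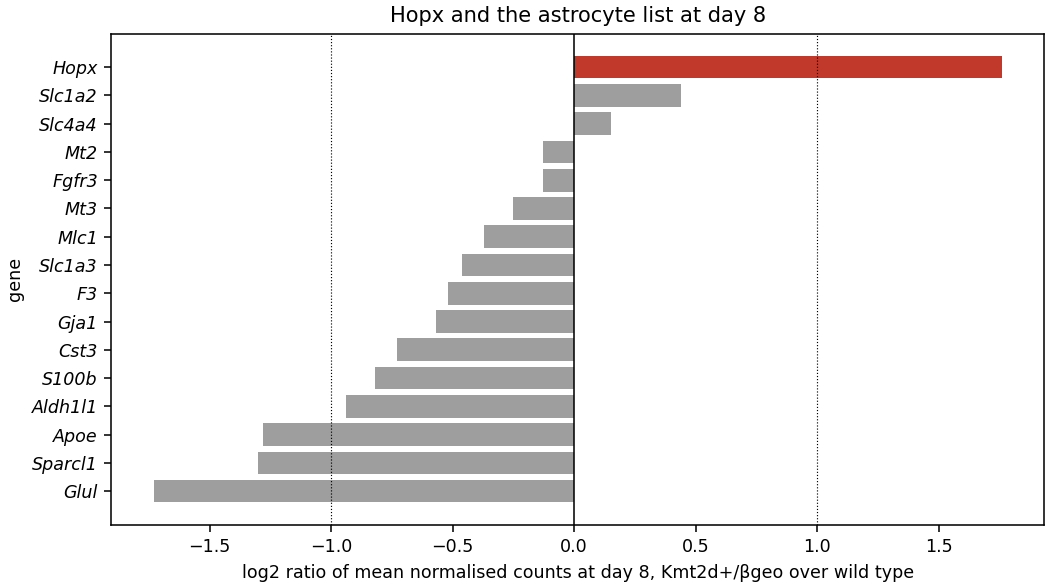
Log2 ratio of mean normalised counts on day 8, Kmt2d+/βgeo over wild type (x axis), for Hopx (red) and the 15 astrocyte genes of the matrix (grey), with dotted lines at 2-fold either way. Hopx is at 1.76, 2 astrocyte genes lie above 0 and 13 below, with Glul lowest at -1.73.

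Hopx partners, its homeobox relatives and genes of the BMP pathway were read as lists too. Srf itself has no row in the matrix, and 12 of 27 genes of the list of SRF cofactors, histone deacetylases and SRF targets do. Hdac2, a class I deacetylase, was at 1.54 and 1.66 on day 0 and 0.496 and 0.559 on day 8, lower on day 8 where Hopx was higher, with a median r of -0.072. The SRF targets Cnn3, a calponin, and Vcl, vinculin, had median r values of 0.15 and 0.13, and Cnn2, another calponin, had one of 0.063 with an r of 0.33 in day 2 Kmt2d+/βgeo. In day 2 Kmt2d+/βgeo 6 of 11 measured genes of the list had an r of at least 0.1, against 3 of 11 in wild type and 6.22% and 5.59% of all genes, and 1 in each label was at -0.1 or below, against 4.89% and 4.34%. On day 4, 3 and 2 of 12 were at 0.1 or above, against 5.20% and 4.31% of all genes. In each label 2 were at -0.1 or below, against 4.60% and 3.19%, with Actb, the cytoskeletal beta-actin, at -0.18 in both. On day 8, 0 of 11 were at least 2-fold higher and 0 at least 2-fold lower in Kmt2d+/βgeo, against 2.06% and 2.81% of all genes.

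Of 29 other homeobox genes, Zeb1, a zinc finger homeobox repressor, had the lowest median r, at -0.12, and Tgif2, a TGF-beta corepressor, was at -0.11. Pax6 was at 0.034 and Prox1, the granule neuron factor, at -0.064. On day 8, 2 of 24 compared homeobox genes were at least 2-fold higher in Kmt2d+/βgeo and 1 lower, against the same 2.06% and 2.81% of all genes, with Irx5 at 0.367 against 0.0467 and Meis1 at 0.743 against 0.310, while the 1 lower was Meis2, at 0.620 against 1.44. The pathway of BMP receptors, SMADs and ID proteins gave 10 of 24 genes, with median r values between -0.027 (Smad5) and 0.064 (Id3). On day 8, 0 of 9 of these were at least 2-fold higher in Kmt2d+/βgeo and 1 lower, against those same shares. The 1 lower, Bmpr1b, a type I BMP receptor, was at 0.214 against 0.505.

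Over the 8 libraries, the genes whose mean log2 value most resembled that of Hopx were Notch2 (r = 0.99), 1810058I24Rik (0.97), Lrp1 (0.94), Chpt1 (0.94) and Timp3 (0.93), out of 519 genes that ranged by at least 1 on the log2 scale. These r values rest on 8 libraries that share labels and days, and are a description. Notch2, a receptor of the Notch pathway, had mean normalised counts of 0.256 and 0.120 on day 0, 0.651 and 0.488 on day 2, 0.568 and 0.539 on day 4 and 2.48 and 0.664 on day 8, so it shared with Hopx the higher day 0 and day 8 values of Kmt2d+/βgeo. Lrp1, a lipoprotein receptor, was at 4.52 against 2.13 on day 8, Chpt1, a phosphatidylcholine synthesis enzyme, at 4.47 against 3.05, and Timp3, a metalloproteinase inhibitor, at 4.79 against 1.86. Within libraries, the cell-level r of Notch2 with Hopx had a median of -0.0066, far below its r over libraries. In all, 12 genes had an r of at least 0.9, and without the day 8 Kmt2d+/βgeo library 39 did, 6 of the 12 among them, with Notch2 at 0.96 and Lrp1 at 0.80. At the other end, 59 of the 519 genes had an r of -0.9 or below. That count was not repeated without the day 8 Kmt2d+/βgeo library, which was both the highest in Hopx and the shallowest. The part of depth in it was not tested.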

How the data were processed

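Per the labels, libraries were made with a 3′-end Chromium v3 kit. The authors counted spliced molecules with alevin (Salmon 1.3.0) against GRCm38, removed low-quality cells and likely doublets, mitochondrial genes and rarely seen genes, and scaled each cell by library size. Seurat 3.2.2, which they used to integrate samples, does not enter these values. The deposited matrix holds log2 values (of normalised count plus 1) for 9140 genes and 30408 cells, and a deposited cell table holds total UMIs, an estimated count per cell. The total count per cell limits what can be seen of a gene. The matrix genes hold only part of that total, and the filter that left out other genes was not traced.

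Values were turned back to normalised counts, which summed to 8707.1 in each cell. The commonest value of a cell was taken as 1 UMI, and 86.8% of nonzero values were then within 0.01 of a whole UMI. Estimated UMIs were rounded for thinning to 3000 UMIs per cell without replacement. Sums and unthinned shares used the unrounded estimates, so any nonzero estimate counted as a UMI in the unthinned shares. Since the deposited values are log2 values and not counts, and each group has 1 library, no count model was run. Levels, exact 95% intervals, log2 ratios, Pearson's r and Fano factors were computed with Python 3.11.15, numpy 2.4.6 and scipy 1.17.1, and checked on simulated data. Genes entered a comparison once their mean reached 0.1 in 1 of the libraries compared. Named genes were, by rule, the 5 highest and 3 lowest r per library, the 10 highest and 5 lowest median r, the 5 most alike over libraries, genes for co-detection, up to 4 members per list by median r, and list members with an r of 0.3 or beyond. Other list members, Luzp2 and the genes shared by the top 50 lists were named after their values were seen. Hopx, the gene lists and the comparisons were chosen with earlier results of these data known. Cells were not clustered. Alternatives changed the scale, thinning, cells, genes and libraries used. Exon positions came from GENCODE M21, on GRCm38 like the deposited gene table, though the authors counted with a later GENCODE release.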

Additional observations from a re-analysis of the deposited data

Results flagged for a closer look

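The log2 ratio of Hopx between labels, Kmt2d+/βgeo over wild type, changed sign between days, and this difference was not tested. It was 0.94 on day 0, -0.065 on day 2, 0.021 on day 4 and 1.76 on day 8, so day 2 has the opposite sign to each of the other days. The values of days 2 and 4 are close to 0. The day 4 value compares libraries that were nearly alike over all genes.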

How the results depend on the processing

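No paired analysis was run, since Hopx was chosen by its levels in these libraries and is described with no test. Every value below describes single libraries, and counting error, depth and free RNA limit it; a share of cells depends on the UMIs kept per cell. The cause of each change was not tested.

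Hopx log2 ratios of days are given as day 2, 4 and 8 over 0 and day 8 over 4 and 2, and ratios of labels as Kmt2d+/βgeo over wild type. As differences of mean log2 values they were 0.51, 0.57, 1.80, 1.23 and 1.28 in Kmt2d+/βgeo, 0.71, 0.67, 0.90, 0.23 and 0.19 in wild type, and 0.13 on day 0 and 1.03 on day 8 between labels. Without the 5% of cells highest in Hopx they were 2.18, 2.22, 4.41, 2.20 and 2.23, then 3.27, 3.14, 3.57, 0.43 and 0.30, and -0.12 between labels on day 2. From summed UMIs, some ratios moved by more than the distance from the middle of their counting interval to its end. In Kmt2d+/βgeo these were 1.97 (day 2) and 3.91 (day 8) over day 0. In wild type they were 2.99 (day 2) and 2.75 (day 4) over day 0 and 0.074 for day 8 over 2. Between labels it was 1.81 on day 8. Thinning gave 2.16 and 2.04 for day 8 over 4 and 2 in Kmt2d+/βgeo and 1.82 between labels on day 8. Without cells with Top2a, the ratios over day 0 were 1.75, 1.60 and 3.71 in Kmt2d+/βgeo, and 2.78 and 2.55 for days 2 and 4 in wild type.

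Depth terciles, chosen after seeing the data like the day 8 over day 2 ratio, changed the direction of 2 ratios. In the deepest cells the ratios of days were 2.26, 2.06, 4.09, 2.03 and 1.83 in Kmt2d+/βgeo, then 3.27, 3.11, 3.17, 0.060 and -0.11 in wild type, the last with its sign turned. Between labels they were 1.06 on day 0, 0.054 on day 2, also turned, and 1.99 on day 8. In the shallowest they were 1.04, 1.19, 3.50, 2.31 and 2.46, then 2.28, 1.97, 2.70, 0.73 and 0.42, and between labels -0.34 on day 2, 0.13 on day 4 and 1.70 on day 8. The ratios of labels on days 0 and 8 and of days 2, 4 and 8 over day 0 kept their sign in each of these settings.

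The share of cells with a Hopx UMI, Kmt2d+/βgeo first, was 7.85% and 4.57%, 22.9% and 24.0%, 23.2% and 23.6%, and 60.8% and 31.3% on days 0, 2, 4 and 8 at 2000 UMIs per cell. Unthinned it was 28.2% and 19.4%, 44.3% and 48.5%, 53.5% and 49.9%, and, in day 8 wild type, 60.4%. The Fano factors at 2000 UMIs were 1.42 and 1.20, 2.01 and 1.85, 1.58 and 1.54, and 2.40 and 1.52. At that depth the share was higher with Top2a in 1 library, with Map2 in 1 and with Rbfox3 in 0, against 0, 2 and 1 at 3000.

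Genes with a median r of at least 0.2 numbered 21, and 3 after thinning and 11 within the middle depth tercile, the latter chosen after seeing the data. Of the 20 highest, 18 or 19 stayed among the 20 highest under each alternative. Genes with an r of at least 0.9 over libraries numbered 12, and 39 without the day 8 Kmt2d+/βgeo library, also chosen after seeing the data, as opposed to 16 without day 4.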
